A study of Caenorhabditis elegans with 3 samples.

Results

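The genes described here encode the CDC-48 segregase and its ubiquitin-handling cofactors: cdc-48.1 and cdc-48.2 (the ATPase), ufd-1, npl-4.1 and npl-4.2 (the substrate-recruiting adaptor) and ufd-2 (a ubiquitin ligase partner). They are 6 of the 19973 nuclear protein-coding genes of the annotation. The set was chosen by the score of cdc-48.1, whose promoter region is one of the strongest of the dataset, and the other 5 genes were taken because they belong to the same machine. The values of cdc-48.1 are therefore a description with no test, and nothing here is tested for the set. For each gene, every point source (the base at which the authors' caller placed the centre of binding within a region) was collected over the gene body and the 5 kb upstream of its first transcription start site (TSS).

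The data are ChIP-seq of MEP-1, a zinc-finger protein of the nucleus that works with the remodelling ATPase LET-418 and the histone deacetylase HDA-1. There was 1 group with 3 biological replicates of whole L4 larvae, listed as males and females pooled, all of strain OP102, whose genotype is unc-119(tm4063) III; wgIs102. The insertion expresses MEP-1 with a GFP-FLAG tag at its C terminus. The labels describe the target as eGFP-mep-1 and name mep-1 in the antibody field, and the promoter that drives the insertion is not given in the sources used here. Replicates 1 and 2 came from the CGC and list a fragment size range of 150 to 350 bp, whereas replicate 3 came from the producing laboratory and lists sonication with no size range. Whole animals mix all tissues, so a region cannot be placed in a cell type, and region lists hold no expression values with which stage or tissue could be checked.

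CDC-48, called p97 or VCP in mammals, is a ring-shaped AAA ATPase that pulls ubiquitin-tagged proteins out of membranes, chromatin and complexes. The UFD-1 and NPL-4 proteins form a pair that grips the ubiquitin chain and loads the substrate, and UFD-2 is a U-box enzyme that lengthens such chains. In C. elegans the machine serves endoplasmic-reticulum-associated degradation (ERAD), DNA replication and embryonic divisions, and hands many of its substrates to the proteasome.

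The authors' optimal list, kept by the irreproducible discovery rate (IDR) procedure, held 5209 nuclear regions with scores from 62.2 to 2188 and a median of 106. Each replicate's relaxed list held 30000 regions, and its median score was 11.6 in replicate 1, 12.6 in replicate 2 and 5.73 in replicate 3. The scale of the score is not stated, so scores are used to rank regions within a list, rank 1 being the highest, and never to form a ratio between lists. Read depth is unknown. To compare lists of equal length, only the 5167 distinct regions with the highest scores, called top regions below, were taken from each replicate, as many as the distinct regions of the IDR list. The region lists of no pair of replicates held an identical region (0 in each pair).

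The sequences below show the DNA at the regions on which the results turn: the promoter regions of cdc-48.1 and ufd-2, and the intergenic region between cdc-48.2 and its divergent neighbour ctns-1. Each is 300 bp around the point source of the IDR list, 5′ to 3′ on the strand of the gene, read from the RefSeq genome of assembly WBcel235, which is build ce11. Capitals mark CGCGC on either strand, a motif picked after these sequences had been seen. The promoter region of ufd-1 and the upstream region of npl-4.2 lie partly in annotated untranslated regions and are not printed. The first lies on the minus strand at II:10563418-10563717, the second on the plus strand at II:8062283-8062582 and the last on the plus strand at II:8137493-8137792.
cdc-48.1 promoter: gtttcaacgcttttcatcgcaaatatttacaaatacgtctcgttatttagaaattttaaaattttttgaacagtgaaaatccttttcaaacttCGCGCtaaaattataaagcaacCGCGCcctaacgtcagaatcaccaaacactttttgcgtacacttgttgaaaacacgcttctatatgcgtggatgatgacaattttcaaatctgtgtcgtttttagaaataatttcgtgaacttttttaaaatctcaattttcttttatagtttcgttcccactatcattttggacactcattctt
ufd-2 promoter: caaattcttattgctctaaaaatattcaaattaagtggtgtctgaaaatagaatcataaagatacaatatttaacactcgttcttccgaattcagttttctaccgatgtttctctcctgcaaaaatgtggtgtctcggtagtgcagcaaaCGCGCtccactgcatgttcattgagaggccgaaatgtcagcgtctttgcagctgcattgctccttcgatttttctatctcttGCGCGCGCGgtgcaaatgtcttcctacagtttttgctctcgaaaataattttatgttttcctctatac
cdc-48.2 intergenic: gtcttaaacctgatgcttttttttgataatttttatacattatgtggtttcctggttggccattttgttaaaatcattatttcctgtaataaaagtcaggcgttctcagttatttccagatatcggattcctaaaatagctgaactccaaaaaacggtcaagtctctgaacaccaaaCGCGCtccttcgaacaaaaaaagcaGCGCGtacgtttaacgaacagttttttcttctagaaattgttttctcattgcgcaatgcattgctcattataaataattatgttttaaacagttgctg

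Within these windows CGCGC occurred 2 times at cdc-48.1, starting 56 and 34 bp before the point source (-56 and -34), and 6 times at ufd-2, where 5 of the matches overlap in 1 run of alternating G and C. It occurred 2 times at the cdc-48.2 intergenic region and 2 times at ufd-1, and 0 times at the region upstream of npl-4.2. For scale, 29.91% of the 300 bp windows at IDR point sources and 14.88% of the 300 bp windows upstream of protein-coding genes held CGCGC on either strand. The ufd-2 and cdc-48.2 windows shared the 12-base run CAAACGCGCTCC, which starts at -3 from the point source of ufd-2 and at 24 from that of cdc-48.2. The shorter ACGCGCTC inside that run was also present in the ufd-1 window, on the strand opposite to the gene, starting 5 bp past the point source. On either strand, ACGCGCTC was in 2.19% of IDR windows and 0.78% of upstream windows. This motif was picked in the same way, so its presence in 3 of the 5 windows is a description.

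Of the 6 motifs searched by rule, on both strands, the cdc-48.1 window held 1, TTCNNGAA, the core of a heat-shock element, as TTCGTGAA starting 78 bp past the point source. The cdc-48.2 intergenic window held the same motif as TTCTAGAA, 81 bp past its point source. TTCNNGAA was in 13.94% of IDR windows and in 17.97% of upstream windows. GAGAGA, in 46.63% of IDR and 21.57% of upstream windows, was found at ufd-2 and at the region upstream of npl-4.2. The latter also held CTGCGTC, in 16.11% and 4.52% of windows, and the ufd-1 window held the E-box CACGTG, in 9.66% and 5.74%. TGATAAG (10.64% and 9.25%) and TGACGTG (4.15% and 2.82%) were in none of the 5 windows. These are matches of letters only. The GC content was 32% at cdc-48.1, 34.3% at the cdc-48.2 intergenic region, 35.7% at ufd-1, 37.0% upstream of npl-4.2 and 39.3% at ufd-2, against a median of 39.3% over IDR windows and 33.3% over upstream windows. The strongest region of the set was thus the most AT-rich of these 5.

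A point source of the IDR list lay in the promoter window (from 500 bp before to 100 bp after the TSS of any transcript) of 3 of the 6 genes, cdc-48.1, ufd-1 and ufd-2. Over all nuclear protein-coding genes this share was 12.7%. Among the top regions of replicate 1, 4 of the 6 genes had one (background 12.9%), the addition being cdc-48.2, and 3 of the 6 had one in replicate 2 (12.4%) and in replicate 3 (12.8%). The same 3 genes had a promoter point source among the top regions of all 3 replicates, as did 8.75% of all genes. In the full relaxed lists, 4 of the 6 genes had a promoter point source in each replicate, against 29.4%, 29.0% and 31.9% of all genes. The genes were chosen with cdc-48.1 already known to be high, so 1 of the 3 promoter regions was fixed by the choice.

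**Figure D1:**
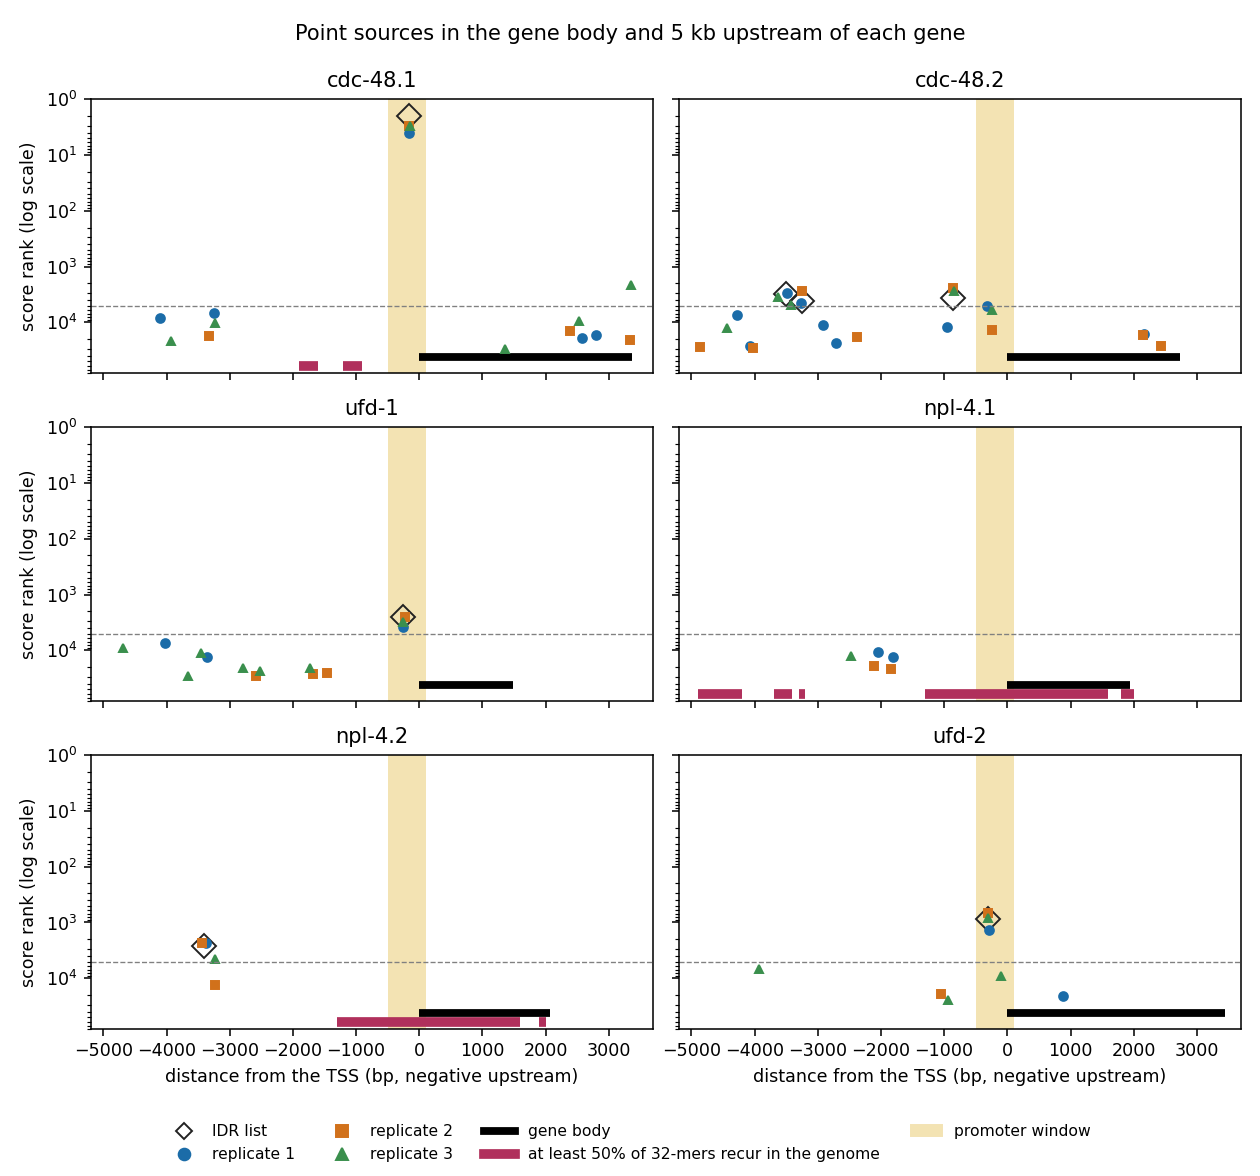
Point sources of the IDR list (open diamonds) and of replicates 1, 2 and 3 (circles, squares, triangles) at the 6 genes; the x axis is the distance from the first TSS in bp, and the y axis the score rank on a log scale, with rank 1 at the top and a dashed line at rank 5167. The black bar is the gene body, the shaded band the promoter window and the red bar marks 100 bp bins in which at least 50% of 32-base words recur elsewhere in the genome. The cdc-48.1 region alone sits at ranks 2 to 4, and the red bar covers the start of both npl-4 genes.

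Over the gene body and 5 kb upstream, 5 of the 6 genes held an IDR point source, 7 point sources in all, and npl-4.1 held none. The background share for this window was 30.2%. The top regions of each replicate gave the same 5 genes, against 30.6%, 29.9% and 31.2% of all genes. In the full relaxed lists all 6 genes held at least 1, where 52.8%, 53.5% and 60.8% of all genes did. By number of IDR point sources, npl-4.1 was with the 69.8% of genes that had 0, cdc-48.1, ufd-1, npl-4.2 and ufd-2 with the 19.6% that had 1, and cdc-48.2 with the 2.17% that had 3.

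The ATPase gene cdc-48.1 (WBGene00007352) lies on the minus strand of chromosome II, 10560036 to 10563407. Its promoter region, II:10563354-10563782 (429 bp), had a score of 1689 and rank 2 of 5209 in the IDR list, behind the rpl-3 promoter region at 2188 and ahead of a region on chromosome X at 1663. In its own relaxed list the region scored 675 in replicate 1, 744 in replicate 2 and 292 in replicate 3. These scores gave ranks 4, 3 and 3, so the region was among the 4 highest of about 30000 in every replicate. The mean rank was 3.33 ± 0.577 (SD, n = 3). In replicate 1 the regions above it were those of rpl-3 and 2 regions on chromosome X, in replicate 2 those of rpl-3 and 1 region on chromosome X, and in replicate 3 those of rpl-3 and tasp-1.

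The centre of binding upstream of cdc-48.1 was placed within a range of 12 bp by the 3 replicates. The point source lay 164 bp upstream of the TSS in replicate 1, 163 bp in replicate 2 and 152 bp in replicate 3 (SD 6.66 bp), and 161 bp upstream in the IDR list. The regions were 365, 390 and 335 bp wide. The point source was intergenic in every list, in the 704 bp between cdc-48.1 and C06A1.6, the next protein-coding gene upstream, which is on the same strand. The nearest TSS of any gene type was that of cdc-48.1.

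Away from the promoter, the cdc-48.1 locus held low-ranked relaxed regions that are not in the IDR list. A point source near the start of the non-coding RNA gene C06A1.11 was present in all 3 replicates, 3256, 3327 and 3237 bp upstream, at ranks 6699, 17209 and 10439. Inside the gene, point sources near the intronic snoRNA gene C06A1.8 were at ranks 18987, 14082 and 9453. Farther out, replicate 1 had a point source 4097 bp from the cdc-48.1 TSS at rank 8340 and replicate 3 one at 3925 bp and rank 21421. Further point sources in the gene body were at rank 16686 in replicate 1 and rank 29832 in replicate 3. All of these fell outside the top regions.

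A weaker IDR region lay just past the other end of the gene and 113 bp outside the window of the rule, at II:10559721-10560124 with score 108 and rank 2547. Its replicate counterparts scored 48.31, 44.17 and 26.6, at ranks 2363, 2842 and 2152, all within the top regions. The point source was 137 bp past the gene end in replicate 1 and 173 bp past it in replicate 2, but 18 bp inside the gene, in the annotated 3′ untranslated region, in replicate 3. Replicate 2 also had a weaker point source 32 bp inside the gene, at rank 20719, outside its top regions. The region past the gene end therefore enters the count of top point sources of cdc-48.1 in replicate 3 (2) and in neither other replicate (1 each). On the upstream side the next IDR point source was 90512 bp beyond the window, at -287 bp from the TSS of rsp-7, which encodes an SR-family splicing factor.

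The paralog cdc-48.2 (WBGene00008053; II, plus strand, 8138496 to 8141230) encodes the second CDC-48 ATPase, and its promoter was not in the IDR list. A promoter region was present in each relaxed list, scoring 29.2 in replicate 1, 13.6 in replicate 2 and 13.1 in replicate 3, with point sources 323, 250 and 249 bp upstream. Their ranks were 5008, 13817 and 6023, so it was among the top regions in replicate 1 only. In the pooled list it scored 56.4, at rank 5832, just under the lowest score of the IDR list (62.2). The ranks of 4, 3 and 3 at cdc-48.1 stand beside these as a description only, since that gene was chosen for its rank. The paralogs share 5 of the 3341 32-base words of the cdc-48.1 body, and both promoter windows hold 0 recurring words of 570, so their regions are at distinct sequence.

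The 3 IDR point sources of cdc-48.2 all lay closer to ctns-1, a divergent gene named for the lysosomal cystine transporter cystinosin, whose start is 1577 bp away. The one nearest to cdc-48.2 was intergenic, 854 bp upstream of cdc-48.2 and at -724 bp from the TSS of ctns-1 (II:8137440-8137843, score 82.5, rank 3675). There the replicates scored 14.3, 49.2 and 22.7, at ranks 11983, 2407 and 2794. Replicate 1 stood apart, outside the top regions and with its point source 952 bp upstream, whereas replicates 2 and 3 placed it 855 and 844 bp upstream. The other point sources were in the body of ctns-1, 3506 bp upstream in coding sequence (score 94.1, rank 3083) and 3256 bp upstream in an intron (score 74.9, rank 4166). Their regions overlap, and the replicates divided the stretch differently: replicate 1 had top point sources 3491 and 3268 bp upstream (ranks 2977 and 4583), replicate 2 had 1 at 3250 bp (rank 2717), and replicate 3 had 2 at 3627 and 3426 bp (ranks 3545 and 4867). Beyond the window the next IDR point source was 1911 bp further upstream (score 78.7) and, downstream, 2225 bp past the gene at the start of ints-11, an Integrator subunit gene (score 78.3).

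The ubiquitin ligase gene ufd-2 (WBGene00006734; II, plus strand, 8062741 to 8066193) had the second-highest promoter region of the set. The region, II:8062326-8062572 (247 bp), had a score of 208 and rank 853 in the IDR list and was intergenic, within the 987 bp that follow T05H10.8. In the replicates it scored 66.8, 98.6 and 44.1. The ranks were 1371, 671 and 836, a mean of 959.3 ± 366 (SD, n = 3), so it was in the upper part of the top regions in each. The point source was 287, 309 and 304 bp upstream (SD 11.5 bp). Replicate 3 had another promoter point source 105 bp upstream at rank 9267, outside its top regions, and the pooled list one 107 bp upstream at rank 29161. A relaxed region in the ufd-2 coding sequence, 889 bp into the gene at rank 20559, was seen in replicate 1 and not in replicates 2 and 3. Farther upstream, replicate 3 had relaxed point sources at 3924 bp (rank 6892) and 946 bp (rank 24290). Replicate 2 had one 1055 bp upstream (rank 19461). All of these were outside the top regions.

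The adaptor gene ufd-1 (WBGene00006733; IV, minus strand, 12329408 to 12330890) had a promoter region of middle rank. The region, IV:12330946-12331349, had a score of 109 and rank 2518 in the IDR list. The replicates scored it 35.3, 47.6 and 21.4. Their ranks were 3856, 2550 and 3084, a mean of 3163 ± 657 (SD, n = 3), all within the top regions and all below those of ufd-2 in the same replicate. Point sources were 258, 231 and 259 bp upstream (SD 15.9 bp). The point source lies in the 3′ untranslated region of F19B6.1, which is on the same strand and ends 85 bp before ufd-1 begins, although the nearest TSS is that of ufd-1. Other relaxed point sources, 2 in replicate 1, 3 in replicate 2 and 6 in replicate 3, lay within F19B6.1, none among the top regions.

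**Figure D2:**
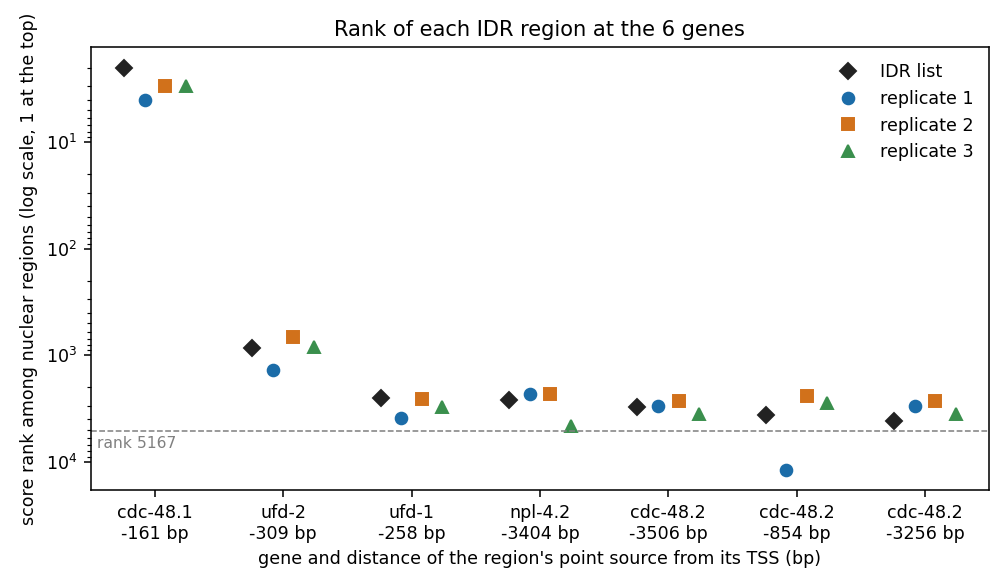
Score rank (y axis, log scale, rank 1 at the top) of each of the 7 IDR regions at the 6 genes, in the IDR list (diamond) and in replicates 1 (circle), 2 (square) and 3 (triangle), taking the highest-scoring overlapping region of each replicate; x labels give the gene and the distance of the point source from its TSS in bp. The cdc-48.2 regions at -3506 and -3256 bp overlap and take the same replicate regions, so the same replicate ranks are shown at both. The 3 promoter regions hold the order cdc-48.1, ufd-2, ufd-1 in every list, and in the region 854 bp upstream of cdc-48.2 replicate 1 falls below rank 5167, at 11983.

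The order of the promoter regions by rank was cdc-48.1, ufd-2, ufd-1 in each replicate, and no rank of one gene fell within the range of another over the replicates, the first place being fixed by the choice of the set. The relaxed cdc-48.2 promoter came after ufd-1 in each replicate, and its best rank of 5008 was below the lowest of ufd-1 (3856). The npl-4 genes had no promoter point source in any relaxed list.

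**Figure D3:**
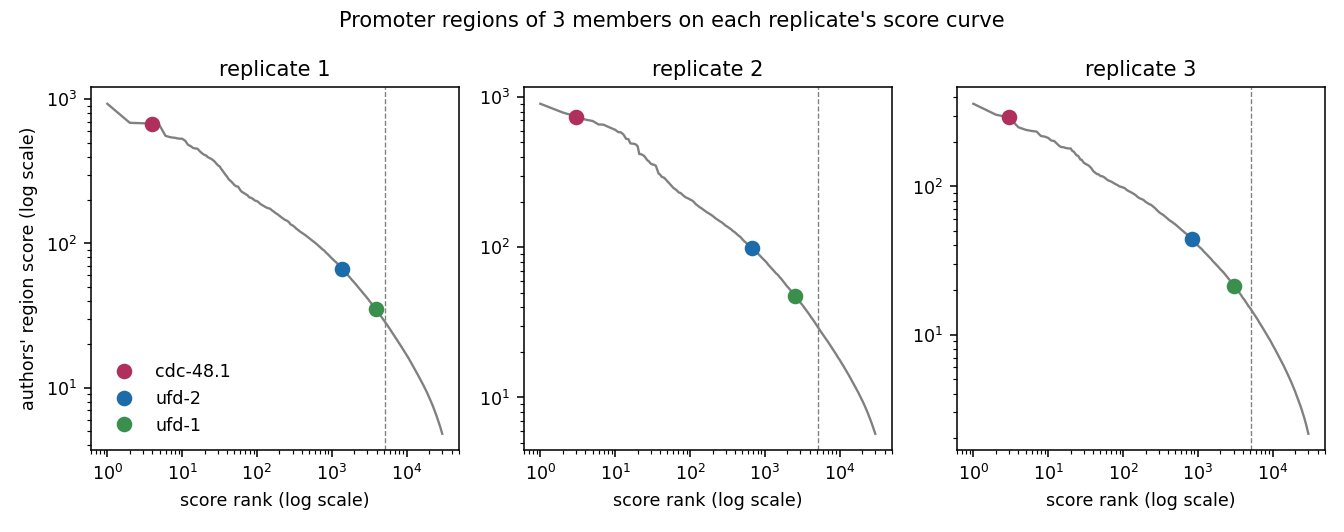
Score (y axis, log scale) against score rank (x axis, log scale) for all regions of each replicate's relaxed list (grey line), with the promoter regions of cdc-48.1, ufd-2 and ufd-1 marked and a dashed line at rank 5167. The cdc-48.1 region sits on the first 4 ranks of each curve, with scores of 675, 744 and 292, and ufd-1 lies close to the dashed line.

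The adaptor genes npl-4.1 (WBGene00019120; II, plus strand, 5631351 to 5633284) and npl-4.2 (WBGene00019121; II, plus strand, 5622889 to 5624959) encode paralogous NPL-4 proteins, and neither had a promoter point source. At npl-4.1 the relaxed lists held 2 point sources in replicate 1 (2048 and 1817 bp upstream, ranks 10517 and 13092), 2 in replicate 2 (2110 and 1835 bp, ranks 19307 and 21495) and 1 in replicate 3 (2480 bp, rank 12509). All of them lay within the divergent gene F59E12.6, outside the top regions. At npl-4.2 an IDR region at II:5619283-5619686 scored 105 at rank 2641, with its point source 3404 bp upstream. The point source is beyond the divergent neighbour eif-3.L, a translation initiation factor 3 subunit gene, and at -166 bp from the TSS of dhs-6, a gene of the short-chain dehydrogenase family. The replicates scored it 49.2, 50.4 and 16.1, at ranks 2294, 2300 and 4584. Replicate 3 was the lowest, and its point source, 3226 bp upstream, lay in the 3′ untranslated region of eif-3.L, whereas those of replicates 1 and 2 were at 3373 and 3437 bp. Replicate 2 had a weaker point source 3228 bp upstream as well, close to that of replicate 3, at rank 13441.

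The starts of the npl-4 genes lie in DNA that occurs more than once in the genome. Of the 570 32-base words in the promoter window, 538 (94.39%) recur elsewhere in the nuclear genome at npl-4.1 and also at npl-4.2, and 0 recur at each of cdc-48.1, cdc-48.2, ufd-1 and ufd-2. Recurring words made up 86.50% of the npl-4.1 body and 84.41% of the npl-4.2 body, and the bodies share 1646 words. From 1300 bp upstream to 1600 bp downstream of either TSS, every 100 bp bin had at least 50% recurring words. Each of the point sources found at these genes lay in a bin with 0.0% recurring words. Over all genes, 645 had a promoter window with at least 50% recurring words, and 1.24% of those had an IDR promoter point source, against 13.1% of the other 19328. In the relaxed lists the shares were 3.26%, 3.41% and 4.19%, against 30.3%, 29.8% and 32.8%. How the authors treated reads that map to several places is not given in the sources used here. The part of recurring sequence in the lack of regions at the npl-4 promoters was not tested, and a missing region there does not show that MEP-1 is absent.

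The promoters most like that of cdc-48.1, by the mean absolute log2 ratio of ranks over the 3 replicates among genes with a promoter point source in all 3 relaxed lists (4143), belonged to Y17G9B.5 and rpl-20, which share 1 region, and to tasp-1. The shared region ranked 5, 8 and 6 in the replicates, and its likeness measure was 0.91 (0 would be identical ranks). It had a score of 1537 and rank 5 in the IDR list, and its nearest TSS is that of Y17G9B.5, while rpl-20 is a large-subunit ribosomal protein gene. The tasp-1 region, at a gene named for the protease taspase, ranked 7, 9 and 2 (likeness 0.99) and scored 1470 at rank 6 in the IDR list.

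A promoter point source was found at 3 adaptor and 3 ERAD genes around the machine. Of 25 other CDC-48 and ERAD genes, 6 (24.0%) had an IDR promoter point source, beside the background of 12.7%, and 15 had one in the gene body or 5 kb upstream, beside 30.2%. The groups do not separate enzyme types: the ERAD group also holds ubiquitin-conjugating and ligase genes, so the ubiquitin enzyme group is not complete. Nor are the group names exact. The adaptor group counts cdc-48.3, an ATPase gene, and the ubiquitin enzyme group counts png-1, a peptide N-glycanase gene. Promoter point sources were at 3 of 7 genes of the adaptor group, 0 of 5 of the ubiquitin enzyme group, 0 of 3 shuttle factors and 3 of 10 ERAD genes. Among top regions, 8 of the 25 had one in replicate 1 (background 12.9%), 6 in replicate 2 (12.4%) and 7 in replicate 3 (12.8%), and 5 had one in all 3 (8.75%).

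Of the ERAD genes, ubc-6, an E2 ubiquitin-conjugating enzyme of the endoplasmic reticulum membrane, was the highest of the 25. It scored 319 at rank 339 in the IDR list and ranked 389, 323 and 319 in the replicates, above ufd-2 in each. The E2 gene ubc-7 followed with a score of 216 (rank 785; replicates 1019, 826 and 727), close to ufd-2 at 208. The ligase gene rnf-121 scored 136 (rank 1782; replicates 1999, 2082 and 2066), at a point source whose nearest TSS is that of C16C10.4.

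Of the adaptors, ufd-3, a ubiquitin-binding CDC-48 partner, scored 197 (rank 933) and ranked 1094, 1090 and 841 in the replicates. The UBX-domain adaptor genes were ubxn-2, with a score of 184 (rank 1083; replicates 863, 1261 and 1846), and ubxn-1, with a score of 111 (rank 2469; replicates 1864, 5561 and 2974). The ubxn-1 region was outside the top regions of replicate 2, and its nearest TSS is that of tipn-1. The shuttle gene rad-23 had a promoter point source among the top regions of replicate 1 (rank 1479) and replicate 3 (rank 2510), none in any part of the replicate 2 list, and none in the IDR list; the same region lies in the promoter window of the proteasome gene rpn-12. No promoter point source was in any replicate's relaxed list at 8 of the 25 genes, namely cdc-48.3, chn-1, png-1, otub-1, eel-1, ubql-1, marc-6 and cup-2. The relaxed lists of replicates 1, 2 and 3 held one at 13, 11 and 14 of the 25 genes. For all genes these shares were 29.4%, 29.0% and 31.9%. How many of all genes had none in any relaxed list was not counted.

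**Figure D4:**
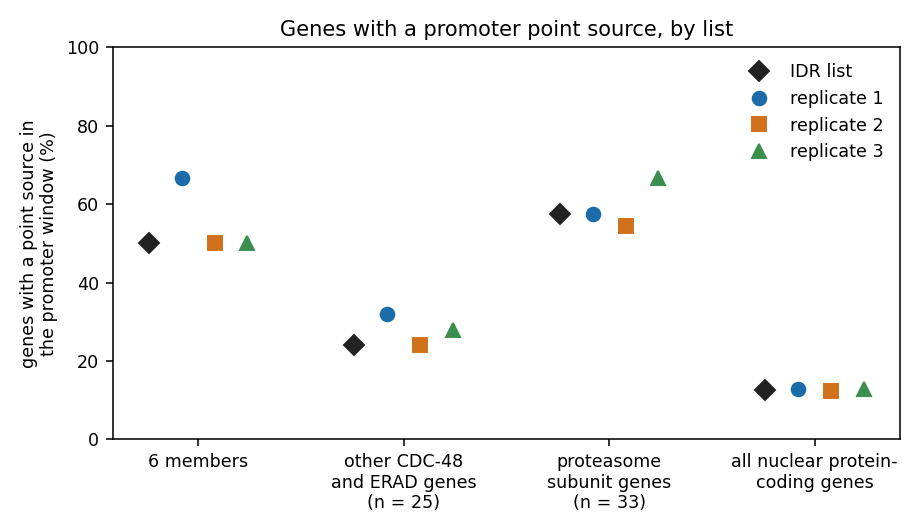
Percent of genes with a point source in the promoter window (y axis, from 0 to 100%) for the 6 genes, 25 other CDC-48 and ERAD genes, 33 proteasome subunit genes and all 19973 nuclear protein-coding genes, in the IDR list (diamond) and among the top regions of replicates 1 (circle), 2 (square) and 3 (triangle). In the IDR list the shares are 50%, 24.0%, 57.6% and 12.7%; the 6 genes were picked with cdc-48.1 known, so their share is a description.

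The proteasome, to which CDC-48 hands substrates, had an IDR promoter point source at 19 of its 33 genes (57.6%), beside 12.7% of all genes. The highest were at the lid subunit genes rpn-3 (score 478, rank 108) and rpn-9 (score 274, rank 483). At pas-3, pbs-2 and rpt-4 the nearest TSS was that of another gene, use-1, eif-6 and nfyc-1 in that order. Among genes with a promoter point source, the median score was 191 over the 6 other CDC-48 and ERAD genes, 139 over the 19 proteasome genes and 127 over all 2533 genes. The high score of cdc-48.1 was fixed by the choice of the set. Without it the remaining promoter scores of the set were 208 at ufd-2, above all of these medians, and 109 at ufd-1, below all of them.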

How the data were processed

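ChIP-seq region lists of 3 replicates (1 group) were used. Per the labels and the files listed with them, the authors deposited, on build ce11, a relaxed list per replicate and on pooled replicates, made with a control as IDR input, and an optimal IDR list. The deposited score per region is the authors' signal value, with no stated scale, and the deposited −log10 q-values saturate, so regions were ranked by score. The sources used here do not give the aligner, the caller, its settings or the IDR threshold. The control and the lists on ce10 were not analysed here. Depth is unknown, so no intervals are given. Nothing in the labels says how the biological replicates were raised.

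Genes, TSSs and features came from Ensembl release 115 (WBcel235), and sequence and 32-base words from the RefSeq genome of that assembly. A gene counted where a point source lay 500 bp upstream to 100 bp downstream of any TSS, or in the gene body and 5 kb upstream. A replicate's region matched an IDR region when they overlapped by at least 1 bp. Mitochondrial regions were left out. Only the ranking and the placing of point sources in the 2 gene windows were tested on simulated data. The software was Python 3.11.15, numpy 2.4.6 and matplotlib 3.10.9.

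The members and lists were chosen with earlier results of these data known, so no test and no p-value is given. Named by rule were the 6 members, the nearest genes of their point sources, the 3 genes most like cdc-48.1, every other CDC-48 or ERAD gene with an IDR promoter point source, and the 2 highest proteasome genes. The following were named after their values were seen: rad-23, rpn-12, the 8 genes with no relaxed promoter point source, the genes just outside the windows, the region past the end of cdc-48.1, the CGCGC and ACGCGCTC motifs, and the cdc-48.2 intergenic and npl-4.2 upstream sequence windows. The same holds for pas-3, pbs-2 and rpt-4. Alternatives covered the promoter window, the upstream reach, region overlap in place of the point source, a stricter list, the pooled list, each replicate alone and each replicate left out.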

Additional observations from a re-analysis of the deposited data

How the results depend on the processing

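Of 60 alternative values, 54 stayed within 1.5 times the main value (or 1 SD for the mean rank) and 6 moved. Not all of them were free to move. The IDR regions at the 6 genes have the same or nearly the same scores in the pooled list. For the IDR counts, leaving out a replicate only takes regions away from the IDR list. The count of 54 is therefore not a measure of robustness. With a promoter window of 200 bp upstream to 100 bp downstream, 1 CDC-48 gene (cdc-48.1) in place of 3, 3 other CDC-48 and ERAD genes in place of 6, and 11 proteasome genes in place of 19 had an IDR promoter point source, while the share of all genes was 6.96% in place of 12.7%. With 1000 bp upstream to 200 bp downstream, 12 other CDC-48 and ERAD genes and 4 CDC-48 genes (cdc-48.2 added) had one, as did 16.3% of all genes. With only the 2605 highest-scoring IDR regions, 3 of the 6 genes in place of 5 had a point source in the gene body or 5 kb upstream, since those at cdc-48.2 and npl-4.2 are lower, and 19.7% of all genes in place of 30.2%. With 2 kb upstream, 4 point sources in place of 7 remained. With only the 2583 highest-scoring distinct regions of each replicate, 2 CDC-48 genes in place of 3 had a promoter point source in all replicates. The gene lost was ufd-1, and this value was counted as within 1.5 times. The share of all genes was not computed for that setting.

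Leaving out each replicate in turn kept the IDR regions that overlap a top region of both others, 67.6% to 72.0% of them. It gave 3 CDC-48 genes with a promoter point source each time, 5 with one in the wider window, and 6 to 7 point sources. It also gave 5 to 6 other CDC-48 and ERAD genes, 17 proteasome genes and a mean cdc-48.1 rank of 3.00 to 3.50. A promoter point source in the top regions of all remaining replicates was found at 3 CDC-48 genes. The share of all genes was not computed for these settings, so these counts have no background beside them. No paired analysis was possible because there is 1 group.

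Depth is unknown, so a region missing from a list is not shown to be absent from the animals. Scores at shared promoters cannot be divided between genes. With 1 group, the regions at these genes cannot be compared between conditions, and the control was not analysed here.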
